A study of Arabidopsis thaliana with 12 samples.

Results

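The Aux/IAA repressors and the auxin-conjugating GH3 enzymes are 2 gene families of Arabidopsis thaliana whose transcripts respond to the hormone auxin. The 36 members, 29 Aux/IAA and 7 GH3 genes, were chosen by gene identifier, with earlier results of these data known. They were read from count tables with 21981 entries in a flg22 experiment and 27612 entries in an experiment on transgenic lines. Transcripts were measured by RNA sequencing in whole seedlings 10 days after germination, in 12 libraries. In the first experiment wild type (libraries WT_mock and WT_flg22) and the cerk1 mutant (cerk1_mock and cerk1_flg22) were kept without flg22 or given 100 nM flg22, with 1 library for each combination. In the second, untreated cerk1 plants carried a FLAG-tagged CERK1 transgene driven by the CERK1 promoter, either of wild-type sequence (CERK1_WT) or of the forms CERK1_3A, CERK1_3D and CERK1_3E, with 2 libraries per line. The cerk1_flg22 library is called cerk1 by its title, while its genotype label reads cerk2-/-. The sources used here state neither how long flg22 was applied nor which residues were substituted nor how many transformants stood behind each line.

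Aux/IAA proteins bind auxin response factors (ARFs) on promoters and recruit co-repressors of the TOPLESS family. Auxin joins an Aux/IAA protein to a receptor of the TIR1/AFB family, the Aux/IAA protein is degraded, and the ARF can then activate its targets, which include many Aux/IAA and GH3 genes themselves. The GH3 enzymes studied here link auxin to amino acids and so lower the amount of free hormone. flg22 is a peptide of bacterial flagellin perceived by the receptor kinase FLS2, and CERK1 is a LysM receptor kinase required for the perception of chitin.

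The 250 bases upstream of the annotated transcript start are shown for the 5 members with the largest log2 ratios on CPM + 1 after flg22 in wild type and for IAA3, which was lower in WT_flg22. They were read 5′ to 3′ on the strand of each gene from the RefSeq genome TAIR10.1. The windows lie at chr3:8182096-8182345 on the minus strand for IAA2 (AT3G23030), chr1:1059220-1059469 on the plus strand for IAA10 (AT1G04100) and chr3:5263751-5264000 on the plus strand for IAA19 (AT3G15540). They lie at chr4:17579368-17579617 on the plus strand for GH3.2 (AT4G37390), chr2:9866563-9866812 on the minus strand for GH3.3 (AT2G23170) and chr1:1129690-1129939 on the minus strand for IAA3 (AT1G04240). Capitals mark TGTCTC and TGTCGG, forms of the element bound by ARFs, and TTGACC and TTGACT, forms of the W-box bound by WRKY factors, searched on both strands.
IAA2: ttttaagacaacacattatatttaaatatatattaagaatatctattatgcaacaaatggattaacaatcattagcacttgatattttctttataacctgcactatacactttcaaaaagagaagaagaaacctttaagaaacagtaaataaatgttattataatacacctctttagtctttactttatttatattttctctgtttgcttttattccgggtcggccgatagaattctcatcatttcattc
IAA10: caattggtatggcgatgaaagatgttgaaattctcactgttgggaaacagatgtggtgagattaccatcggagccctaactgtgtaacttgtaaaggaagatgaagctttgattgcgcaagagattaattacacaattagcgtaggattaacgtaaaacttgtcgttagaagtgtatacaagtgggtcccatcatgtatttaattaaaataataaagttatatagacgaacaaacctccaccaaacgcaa
IAA19: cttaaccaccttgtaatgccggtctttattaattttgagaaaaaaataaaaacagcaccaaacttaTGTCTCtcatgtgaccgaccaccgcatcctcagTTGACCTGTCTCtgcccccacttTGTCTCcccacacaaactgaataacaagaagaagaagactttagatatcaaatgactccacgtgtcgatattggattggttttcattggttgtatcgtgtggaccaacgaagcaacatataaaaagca
GH3.2: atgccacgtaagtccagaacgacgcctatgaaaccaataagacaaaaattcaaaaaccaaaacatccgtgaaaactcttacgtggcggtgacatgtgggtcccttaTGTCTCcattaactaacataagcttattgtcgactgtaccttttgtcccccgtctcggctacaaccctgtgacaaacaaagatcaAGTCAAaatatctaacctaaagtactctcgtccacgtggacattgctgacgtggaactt
GH3.3: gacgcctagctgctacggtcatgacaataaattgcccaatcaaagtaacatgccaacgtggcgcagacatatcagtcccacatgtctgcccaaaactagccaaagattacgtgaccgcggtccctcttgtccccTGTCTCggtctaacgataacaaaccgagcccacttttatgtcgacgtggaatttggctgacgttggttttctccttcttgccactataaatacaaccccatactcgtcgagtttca
IAA3: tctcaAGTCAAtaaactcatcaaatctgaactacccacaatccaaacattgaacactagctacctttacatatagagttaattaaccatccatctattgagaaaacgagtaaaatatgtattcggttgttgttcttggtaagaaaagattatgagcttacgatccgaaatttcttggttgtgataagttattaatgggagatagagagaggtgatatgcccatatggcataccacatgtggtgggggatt
The IAA19 window held TGTCTC 3 times, starting 184, 145 and 128 bases before the transcript start, and the TTGACC at 151 bases adjoined the middle copy. GH3.2 and GH3.3 each held TGTCTC once, at 144 and 116 bases. GH3.2 also held TTGACT on the opposite strand at 59 bases, and IAA3 held it there at 245 bases. None of the 4 motifs was found in the windows of IAA2 and IAA10. Among all 36 members, TGTCTC or TGTCGG lay in the windows of 13 of 29 Aux/IAA and 3 of 7 GH3 genes, against 14.7% of 27443 promoters of the same length. TTGACC or TTGACT lay in 8 of 29 and 5 of 7, against 28.4% of all promoters. These matches are descriptions of the letters in the windows.

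The flg22 libraries held 18159354 to 22663236 counts each, and those of the lines 36013439 to 41288819. Levels are CPM, a gene's count as a share of the library's total on a fixed scale, with TMM scaling inside each table. The genes FRK1, CYP81F2 and WRKY40, which are known to respond to flg22, stood at 0.151 to 4.18 CPM in the mock libraries and at 87.1 to 1352 CPM in the flg22 libraries. CERK1 counts stood at 24.9 CPM in WT_mock against 273 in WT_flg22, and 9.70 in cerk1_mock against 119.1 in cerk1_flg22, so the cerk1 libraries still held reads of this gene and were 2.56-fold lower without flg22 and 2.29-fold lower with it. A list of 17 root markers summed to 275.8 CPM in WT_mock against 222.2 in WT_flg22, and 53.4 in cerk1_mock against 147.8 in cerk1_flg22, with no marker at 0. Of these, 13 were at least 2-fold lower in cerk1_mock than in WT_mock. A list of 6 green tissue markers summed to 32940 to 40570 CPM. In whole seedlings, fewer cells of a type and less RNA per cell cannot be told apart.

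Of the members, 28 Aux/IAA and 6 GH3 genes were listed in the table of the flg22 experiment, and IAA15 and GH3.4 were not analysed there. A gene was counted as higher or lower where its ratio on CPM + 1 was at least 2-fold. With 1 library per combination there was no replicate and no test, and the 95% intervals given with count ratios are exact binomial intervals that cover counting error only. In the second experiment the chi-square per degree of freedom between the 2 libraries of a line was 39.7 to 56.9. Counting error alone gives about 1, so intervals that exclude 1 or do not overlap do not show a difference beyond replicate spread. In wild type, 6 Aux/IAA genes (21.4% of those listed) were higher with flg22, against 13.2% of the 18872 genes that reached 1 CPM in a library, and 1 (3.57%) was lower, against 5.79%. In cerk1, 3 Aux/IAA genes (10.7%) were higher, against a background of 15.2%, and 0 were lower, against 5.38%. The background holds only genes that reached 1 CPM, whereas 7 of the 28 listed Aux/IAA genes did not, so these shares are not like for like. The count in cerk1 depended on the added CPM and was 6 with 0.1 CPM added, so no difference between the genotypes is read from the counts. The family's median on the log2 scale was 0.08 for wild type and 0.07 for cerk1, against -0.03 and -0.01 for all genes. Among the GH3 genes, 2 of 6 were higher in wild type and 3 of 6 in cerk1, against the same backgrounds, and 0 were lower in either.

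**Figure D1:**
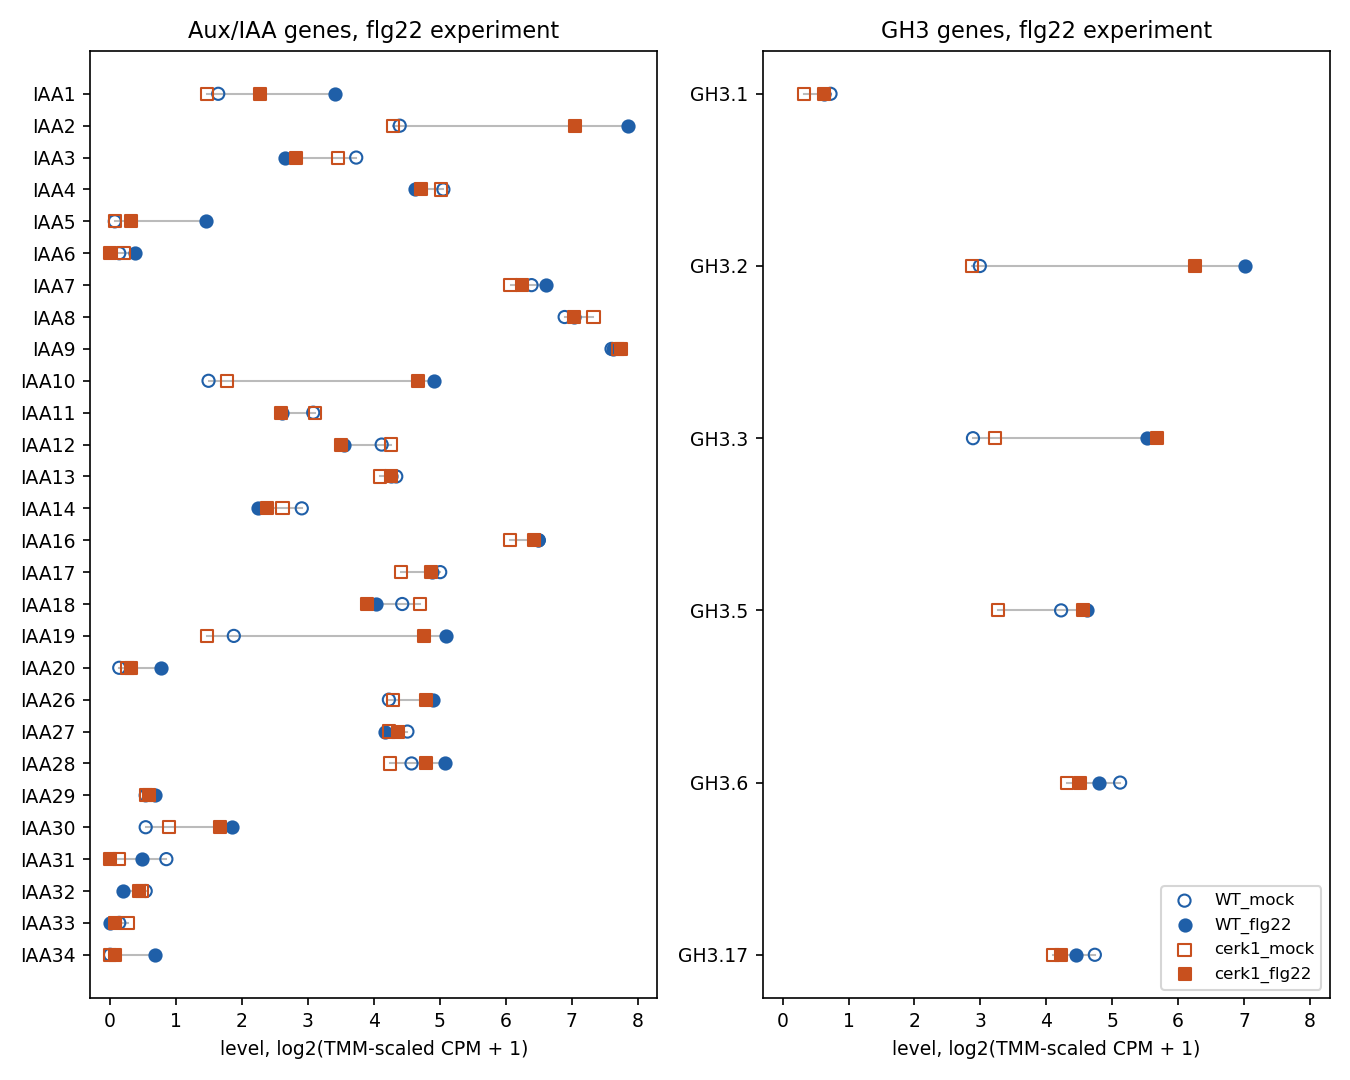
Level of each listed member in the 4 libraries of the flg22 experiment, on a log2(CPM + 1) axis; circles are wild type, squares cerk1, open symbols mock and filled symbols flg22. IAA2, IAA10, IAA19, GH3.2 and GH3.3 have both filled symbols far to the right of both open ones, while IAA9, IAA8, IAA16 and IAA7 are high in all 4 libraries.

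IAA2, an Aux/IAA gene known for its fast response to auxin, had 20.0 CPM in WT_mock against 229.5 in WT_flg22, and 18.7 in cerk1_mock against 131.9 in cerk1_flg22. Both flg22 libraries were far above both mock libraries. The count ratio to mock was 11.5 for wild type (interval 10.4 to 12.7) and 7.08 for cerk1 (6.34 to 7.91), and these intervals do not overlap. IAA19, known as MSG2 and required for the bending of the hypocotyl toward light, had 2.67 CPM in WT_mock against 33.1 in WT_flg22, and 1.76 in cerk1_mock against 26.02 in cerk1_flg22. Relative to mock it was 12.4-fold higher for wild type (9.36 to 16.7) and 14.8-fold higher for cerk1 (10.5 to 21.5), with overlapping intervals. IAA10 had 1.81 CPM in WT_mock against 29.2 in WT_flg22, and 2.41 in cerk1_mock against 24.6 in cerk1_flg22. Its ratios were 16.1 for wild type (11.5 to 23.2) and 10.2 for cerk1 (7.56 to 14.0). The former was the largest ratio of an Aux/IAA gene with more than 1 count in WT_mock. The transcript of IAA10 shares 22.8% of its 50-base words with AT1G04105 on the opposite strand, for which no value is given here. The sources used here do not state the strand setting of the counting, so its reads may hold some of that neighbour.

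The other 3 Aux/IAA genes counted as higher were of low abundance. IAA1, known as AXR5, had 2.12 CPM in WT_mock against 9.67 in WT_flg22, and 1.76 in cerk1_mock against 3.83 in cerk1_flg22, a ratio of 4.57 in wild type (3.26 to 6.54) and 2.17 in cerk1 (1.44 to 3.35). IAA5 had 1 count in WT_mock against 35 in WT_flg22, and 1 in cerk1_mock against 5 in cerk1_flg22. From the single mock count its ratio in wild type was 34.8 with an interval of 5.84 to 1412, and the interval in cerk1, 0.560 to 236.9, included 1. IAA30, whose protein lacks the degron that most Aux/IAA proteins carry, had 0.454 CPM in WT_mock against 2.60 in WT_flg22, and 0.854 in cerk1_mock against 2.16 in cerk1_flg22. Its ratios were 5.74 in wild type (2.80 to 13.3) and 2.53 in cerk1 (1.42 to 4.74). IAA1 and IAA30 were therefore higher with flg22 in both genotypes, and on CPM + 1 only the wild-type ratios of these 2 reached 2-fold.

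IAA3, known as SHY2 and a brake on cell division in the root meristem, was the 1 Aux/IAA gene counted as lower. It had 12.3 CPM in WT_mock against 5.31 in WT_flg22, and 10.0 in cerk1_mock against 6.09 in cerk1_flg22. It was 2.32-fold lower in wild type (1.84 to 2.94) and 1.64-fold lower in cerk1 (1.303 to 2.08). IAA3 shares 33.8% of its 50-base words with AT1G04230 on the opposite strand, which stood at 8.66 to 9.45 CPM in all 4 libraries. Intervals below 1 in both genotypes, without reaching 2-fold in either, were also found for IAA12, known as BODENLOS and required in the embryo for root formation, with ratios of 0.651 for wild type and 0.568 for cerk1. IAA18 had ratios of 0.750 and 0.555, IAA11 of 0.685 and 0.659, and IAA4 of 0.733 and 0.803. IAA26 had ratios of 1.63 and 1.43, and IAA28, which represses lateral root formation, of 1.44 and 1.48, with intervals above 1 in both genotypes. All 6 of these differences were under 2-fold.

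The Aux/IAA genes with the highest levels per length were those with small ratios. Per kilobase of the length stated in the table, WT_mock held 119.3 CPM of IAA9, 72.4 of IAA8, 70.2 of IAA16 and 52.9 of IAA7, the gene of the auxin-resistant axr2 mutant. IAA2 held 21.3 CPM per kilobase in WT_mock and 243.9 in WT_flg22, the highest of all members in that library. Count ratios after flg22 lay between 0.815 and 1.29 for IAA7, IAA8, IAA9 and IAA16 in both genotypes. The direction of IAA8 in wild type depended on the scaling, with a log2 ratio of 0.14 by TMM and -0.14 by library total. IAA2 and IAA7 are adjacent in the annotation on chromosome 3, so a gene with a ratio of 11.5 in wild type lies beside one with a ratio of 1.17. IAA17 (AXR3), IAA13, IAA14 (SOLITARY-ROOT) and IAA27 had ratios of 0.578 to 0.939 in wild type and 0.825 to 1.38 in cerk1. IAA13 shares 41.6% of its 50-base words with 2 other genes, of which AT2G33300 overlaps it on the opposite strand and stood at 0 to 0.0504 CPM.

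Of the GH3 genes, GH3.2 (known as YDK1) had 6.96 CPM in WT_mock against 128.2 in WT_flg22, and 6.33 in cerk1_mock against 75.3 in cerk1_flg22. The ratio was 18.4 for wild type (15.5 to 22.0) and 11.9 for cerk1 (9.90 to 14.4), with intervals that do not overlap. GH3.3 had 6.40 CPM in WT_mock against 45.3 in WT_flg22, and 8.34 in cerk1_mock against 50.4 in cerk1_flg22, and ratios of 7.08 (5.87 to 8.59) and 6.05 (5.13 to 7.17). For both genes the flg22 libraries were well above the mock libraries in each genotype. GH3.2 shares 1.65% of its 50-base words with GH3.3 and GH3.4, and GH3.3 shares 0.338% with GH3.2, so most of each transcript is unique.

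GH3.5, also known as WES1 and able to conjugate salicylic acid as well as auxin, had 17.7 CPM in WT_mock against 23.5 in WT_flg22, and 8.59 in cerk1_mock against 22.6 in cerk1_flg22. The library that stands apart is cerk1_mock, and the ratio with flg22 was 1.33 in wild type (1.16 to 1.53) and 2.62 in cerk1 (2.20 to 3.148). The summed root markers were also lowest in cerk1_mock, 53.4 CPM against 147.8 in cerk1_flg22, and their part in this ratio was not tested. Of the 17 markers, 5 were at least 2-fold higher in cerk1_flg22 than in cerk1_mock, and 12 passed 2-fold in neither direction. PHT1;1 had 10.25 CPM in cerk1_mock and 47.9 in cerk1_flg22, and RHD2 had 2.66 and 31.9, whereas TIP2;3 had 5.28 and 5.44. GH3.6, known as DFL1 and linked to short hypocotyls when overexpressed, had 33.8 CPM in WT_mock against 26.9 in WT_flg22, and 19.0 in cerk1_mock against 21.9 in cerk1_flg22. GH3.17, which prefers glutamate as the amino acid, had 25.7 CPM in WT_mock against 20.9 in WT_flg22, and 16.2 in cerk1_mock against 17.6 in cerk1_flg22. Their ratios with flg22 were below 1 in wild type, 0.798 (0.711 to 0.895) and 0.816 (0.715 to 0.930), and above 1 in cerk1, 1.16 (1.00 to 1.33) and 1.09 (0.933 to 1.27), where the interval of GH3.17 included 1. GH3.1 had 13 counts in WT_mock against 11 in WT_flg22, and 5 in cerk1_mock against 11 in cerk1_flg22, under 1 CPM in each.

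**Figure D2:**
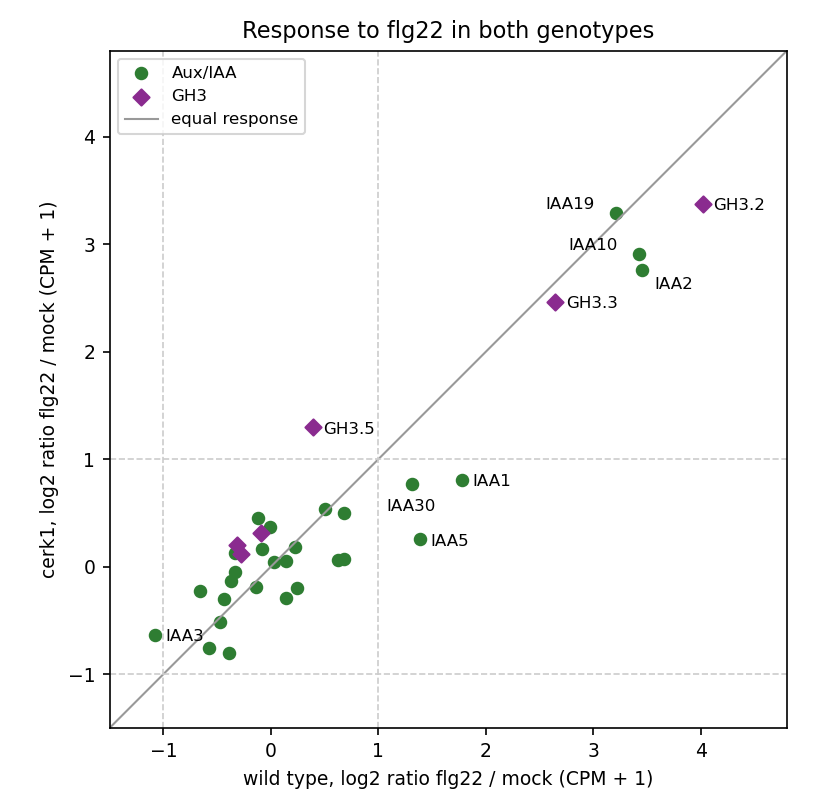
Log2 ratio of flg22 to mock on CPM + 1 in cerk1 against that in wild type for the 34 listed members; dashed lines mark 2-fold and the solid line equal ratios. IAA19, IAA10, IAA2, GH3.2 and GH3.3 stand apart at the upper right, IAA1, IAA5 and IAA30 pass 2-fold in wild type alone, and GH3.5 in cerk1 alone.

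A further 7 Aux/IAA genes and GH3.1 stayed under 1 CPM in all 4 libraries. In the order WT_mock, WT_flg22, cerk1_mock and cerk1_flg22, IAA34 had 0, 12, 0 and 1 counts, at least 3.97-fold higher in WT_flg22 against a floor of 3 counts. IAA20 had 2, 14, 4 and 5 counts in the same order, and IAA31 had 16, 8, 2 and 0. IAA6 had 2, 6, 3 and 0 counts, and IAA33 had 2, 0, 4 and 1. IAA29 had 9 to 12 counts and IAA32 had 3 to 9. IAA32 shares 49.3% of its 50-base words with AT2G01210 on the opposite strand, which stood at 4.96 to 9.73 CPM, so its reads cannot be assigned with certainty. IAA34 shares 8.05% with AT1G15060, which overlaps it on the same strand and stood at 20.2 to 29 CPM, so the reads of IAA34 may hold some of that neighbour. At this depth a change in these genes was mostly not detectable. Counting intervals did exclude 1 for IAA20 with flg22 in wild type, a ratio of 6.95 (1.60 to 63.0). By counts, IAA31 was 8.03-fold lower in cerk1_mock than in WT_mock (1.89 to 71.9). IAA34 was 11.9-fold lower in cerk1_flg22 than in WT_flg22 (1.77 to 510.4). On CPM + 1 these differences stayed under 2-fold. IAA20, IAA32, IAA33 and IAA34 are, like IAA30, members without the usual degron.

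Between genotypes without flg22, 0 Aux/IAA and 0 GH3 genes were at least 2-fold different, against a background of 0.302% of genes higher and 4.01% lower in cerk1_mock. The 6 listed GH3 genes had a median log2 ratio of -0.52 against 0.00432 for all genes. The 5 co-repressor genes of the TOPLESS family had a median of -0.555, with count ratios from 0.667 for TPR3 to 0.859 for TPR1. The GH3 genes did not all lie on 1 side. GH3.3 was 1.303-fold higher in cerk1_mock (1.03 to 1.66), and GH3.2 had a ratio of 0.910 with an interval that included 1 (0.709 to 1.17). GH3.5 was 2.06-fold lower by counts (1.71 to 2.49), or by a log2 ratio of -0.96 on CPM + 1, GH3.6 was 1.78-fold lower (1.57 to 2.03) and GH3.17 was 1.59-fold lower (1.38 to 1.83). IAA17 was 1.54-fold lower (1.36 to 1.75) and IAA16 was 1.36-fold lower (1.26 to 1.46), while IAA8 was 1.36-fold higher (1.29 to 1.43). The summed root markers were lower in the same library, 53.4 CPM against 275.8 in WT_mock, and their part in these values was not tested. With flg22, GH3.5, IAA16 and IAA17 had ratios of 0.958, 0.959 and 0.982 between genotypes, with intervals that included 1. GH3.6 and GH3.17 had ratios of 0.813 (0.715 to 0.924) and 0.842 (0.728 to 0.972), with intervals below 1, and IAA8 had a ratio of 1.00 (0.9504 to 1.061).

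Between genotypes with flg22, 0 members of either family were higher in cerk1_flg22, against 0.641% of all genes, and 2 of 28 Aux/IAA genes were lower, against 0.97%. These were IAA1, 2.53-fold lower (1.93 to 3.34), and IAA5, 6.96-fold lower from 35 and 5 counts (2.72 to 22.8). IAA2 was 1.74-fold lower (1.66 to 1.83) and GH3.2 was 1.70-fold lower (1.60 to 1.82). IAA19 was 1.27-fold lower (1.13 to 1.43) and IAA10 was 1.19-fold lower (1.05 to 1.34), while GH3.3 had a ratio of 1.11 (1.02 to 1.22). The members high after flg22 thus did not share 1 genotype ratio: GH3.3 lay on the other side of 1 from IAA2 and GH3.2. The summed root markers were also lower in cerk1_flg22, 147.8 CPM against 222.2 in WT_flg22. Each of these values rests on 1 library per group and was not tested against replicate spread. In the second experiment, the 2 libraries of a line had 4.94 and 4.87 CPM of GH3.2 in CERK1_WT and 5.39 and 6.30 in CERK1_3A. They had 7.89 and 5.37 in CERK1_3D and 7.36 and 4.31 in CERK1_3E.

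**Figure D3:**
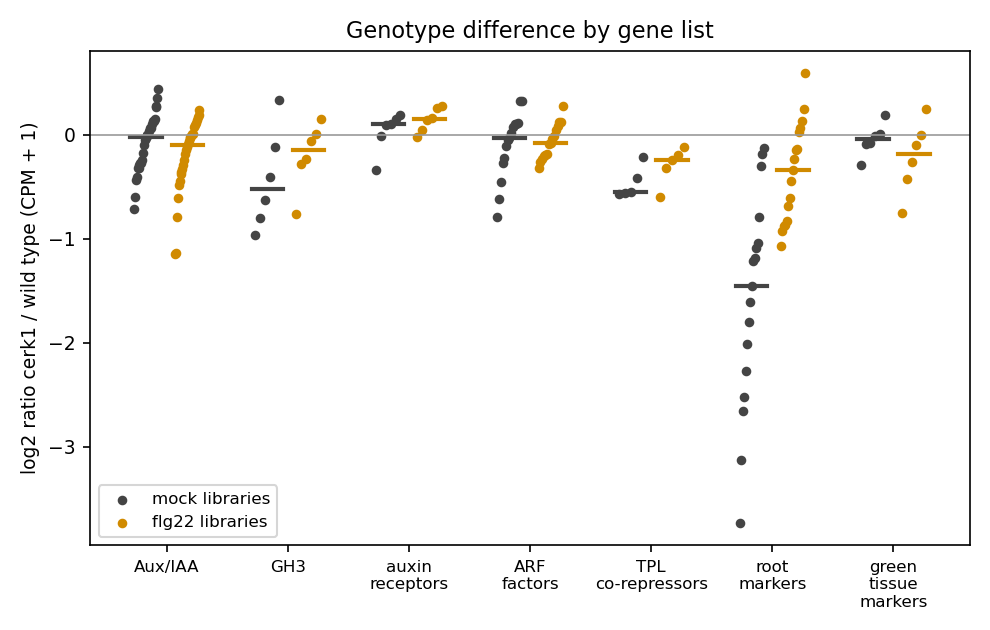
Log2 ratio of cerk1 to wild type on CPM + 1, 1 point per gene and a bar at each list's median, for the mock and the flg22 libraries. The root markers lie lowest in the mock libraries, with a median of -1.45. The TOPLESS family co-repressors have a median of -0.555 there and the GH3 genes of -0.52, and the Aux/IAA genes and the green tissue markers lie near 0.

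Other genes of the auxin pathway were read from lists chosen by function. Of the genes that reached 1 CPM, 13.2% were higher and 5.79% lower with flg22 in wild type, and 15.2% and 5.38% in cerk1. The lists are short, so their counts are descriptions beside these shares. Among 6 auxin receptors, 0 were at least 2-fold higher and 1 was lower with flg22 in wild type, and 0 passed in cerk1. AFB5 had 74.7 CPM in WT_mock against 35.6 in WT_flg22, and 83.0 in cerk1_mock against 43.2 in cerk1_flg22. Of 15 ARF genes, 0 passed in wild type and 1 was lower in cerk1, ARF3 at 74.9 and 35.8 CPM. All 5 co-repressor genes of the TOPLESS family differed by less than 2-fold with flg22.

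Of 11 auxin synthesis genes, 1 was higher in each genotype, 2 were lower in wild type and 1 was lower in cerk1. YUC5, a flavin monooxygenase of auxin synthesis, had 0.907 CPM in WT_mock against 4.16 in WT_flg22, and 0.503 in cerk1_mock against 4.23 in cerk1_flg22. YUC2, a gene of the same family and lower in both genotypes, had 1.92, 0.401, 1.76 and 0.252 CPM in that order. By counts it was 4.78-fold lower in wild type (2.20 to 11.9) and 6.99-fold lower in cerk1 (2.73 to 22.9). TAR2, an aminotransferase of the same route, had 12.5, 5.11, 13.3 and 7.40 CPM, a 2.45-fold lower value in wild type (1.936 to 3.113) and a 1.80-fold lower one in cerk1 (1.47 to 2.22). Among 12 genes of auxin inactivation and release, 10 were listed, 2 were higher in wild type, 3 were higher in cerk1 and 0 were lower. These included IAR3, an amidohydrolase that frees auxin from its alanine conjugate, with 25.9 CPM in WT_mock against 54.8 in WT_flg22, and 18.3 in cerk1_mock against 71.1 in cerk1_flg22. ILL3, a gene of the same family, had 3.88, 17.3, 2.81 and 16.4 CPM in that order. On the same list, ILR1, ILL1, ILL2 and ILL6 had count ratios of 1.03, 0.958, 1.24 and 0.743 in wild type. In cerk1 their ratios were 1.71, 1.08, 1.47 and 1.68.

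Of 25 SAUR genes, short auxin-responsive genes that promote cell expansion, 4 were higher and 2 lower in wild type, and 4 were higher and 3 lower in cerk1. SAUR14 had 15.9 CPM in WT_mock against 3.46 in WT_flg22, and 26.6 in cerk1_mock against 2.37 in cerk1_flg22, and SAUR16 had 8.62, 0.401, 9.70 and 0.302 CPM in that order. In these 2 genes both flg22 libraries lay below both mock libraries, the reverse of IAA19 and GH3.3. SAUR9, SAUR71 and SAUR72 were higher in both genotypes, with count ratios of 9.08, 3.73 and 2.95 in wild type. In cerk1 these ratios were 3.54, 5.48 and 2.26. The growth regulators ARGOS and ARL, 2 of 7 other auxin-induced genes, were higher in both genotypes: ARL had 9.33 CPM in WT_mock against 56.9 in WT_flg22, and 8.14 in cerk1_mock against 45.7 in cerk1_flg22. Of 12 other GH3 genes that are not among the 7 members, 11 were listed and 0 passed 2-fold with flg22 in either genotype.

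In the 4 untreated lines, 26 Aux/IAA and 6 GH3 genes had enough counts to be fitted, and no member was called in any of 7 tests by edgeR's quasi-likelihood test with Benjamini-Hochberg adjustment over 21274 genes at 0.05. The tests were the 6 comparisons between pairs of lines and a test of any difference among the 4. Few genes were called anywhere: 0.0047% of genes in CERK1_3A against CERK1_WT, 0.0282% in CERK1_3D against CERK1_WT and 0.0047% in CERK1_3E against CERK1_WT. The share was 0.0235% in CERK1_3D against CERK1_3A, 0.0094% in CERK1_3E against CERK1_3A, 0.0141% in CERK1_3E against CERK1_3D and 0.0235% for any difference. Whether the libraries of each line were grown apart is not stated, so the p-values rest on a spread between samples that may be technical. At an unadjusted p under 0.05, 1 member passed in CERK1_3A against CERK1_WT (3.07% of all genes), 1 in CERK1_3D against CERK1_WT (2.87%) and 2 in CERK1_3E against CERK1_WT (3.37%). The number was 2 in CERK1_3D against CERK1_3A (5.78%), 2 in CERK1_3E against CERK1_3A (2.45%), 2 in CERK1_3E against CERK1_3D (4.03%) and 2 for any difference (3.24%), near the background for 32 genes.

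The members past the unadjusted threshold for any difference were GH3.6 and IAA31. GH3.6 (AT5G54510, chr5:22130964-22133688 on the minus strand in TAIR10.1) had 35.0 and 34.6 CPM in the CERK1_WT libraries, 49.9 and 41.8 in those of CERK1_3A, 33.9 and 38.0 in those of CERK1_3D and 48.2 and 52.8 in those of CERK1_3E. The libraries of CERK1_3A and CERK1_3E did not overlap with those of CERK1_WT and CERK1_3D. This grouping was read from the values, and the share of all genes with such a split was not counted. In CERK1_3E against CERK1_WT the log2 fold change was 0.54 (SE 0.11, 95% interval 0.28 to 0.80), and edgeR's adjusted p was 1. Its unadjusted p for any difference was 0.00325 and its adjusted p was 1 by edgeR. The likelihood-ratio test of DESeq2 gave GH3.6 an adjusted p of 0.0266 for any difference, at which it was called together with 0.507% of the genes tested. By edgeR, the log2 fold change was 0.40 in CERK1_3A against CERK1_WT and 0.49 in CERK1_3E against CERK1_3D, each with an adjusted p of 0.999 or more.

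CERK1 itself was higher in CERK1_3D than in CERK1_WT, with a log2 fold change of 1.05 (edgeR, adjusted p = 0.0451). Against CERK1_WT its log2 fold change was 1.096 in CERK1_3E (edgeR, adjusted p = 0.0592) and 0.43 in CERK1_3A (edgeR, adjusted p = 1), neither of them called. Its part in the GH3.6 values was not tested. The summed root markers lay between 170.5 and 323.2 CPM in the 8 libraries, with both of these extremes in CERK1_3D.

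IAA31 (AT3G17600, chr3:6019973-6021147 on the minus strand), whose degron departs from the usual form, had 0.331 and 0.351 CPM in the CERK1_WT libraries, 0.343 and 0.221 in those of CERK1_3A, 0.456 and 0.605 in those of CERK1_3D and 0.106 and 0.0819 in those of CERK1_3E. Its highest library held 22 counts and its lowest 3. The log2 fold change of CERK1_3E against CERK1_3D was -2.45 (SE 0.61, 95% interval -3.85 to -1.05), with an adjusted p of 0.999 by edgeR.

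For the 5 members that were high after flg22 in both genotypes, line means differed by less than the widest gap between the 2 libraries of a line. IAA2 had a mean of 31.7 ± 6.94 CPM in CERK1_WT, of 37.9 ± 8.74 in CERK1_3A, of 35.2 ± 8.41 in CERK1_3D and of 42.6 ± 12.4 in CERK1_3E (SD over 2 libraries, n = 2). Its first libraries had 26.75 CPM in CERK1_WT, 29.22 in CERK1_3D, 31.72 in CERK1_3A and 33.85 in CERK1_3E. Its second libraries had 36.56, 41.11, 44.08 and 51.34 CPM in that order. The gap in IAA2 thus ran the same way in every line, and whether this was more than random spread was not tested. GH3.2 had a mean of 4.90 ± 0.0502 CPM in CERK1_WT, of 5.84 ± 0.643 in CERK1_3A, of 6.63 ± 1.78 in CERK1_3D and of 5.84 ± 2.15 in CERK1_3E (SD over 2 libraries, n = 2). GH3.3 ranged over the 8 libraries from 9.735 to 15.9 CPM, IAA19 from 6.50 to 8.21 and IAA10 from 3.245 to 4.99. IAA7, IAA8, IAA9 and IAA16, which hardly varied, had line means within 1.03-fold to 1.06-fold of each other. IAA28, a repressor of lateral roots, had means from 16.4 ± 3.08 CPM in CERK1_3E to 22.8 ± 5.86 in CERK1_WT (SD, n = 2) and was called in no comparison by edgeR.

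**Figure D4:**
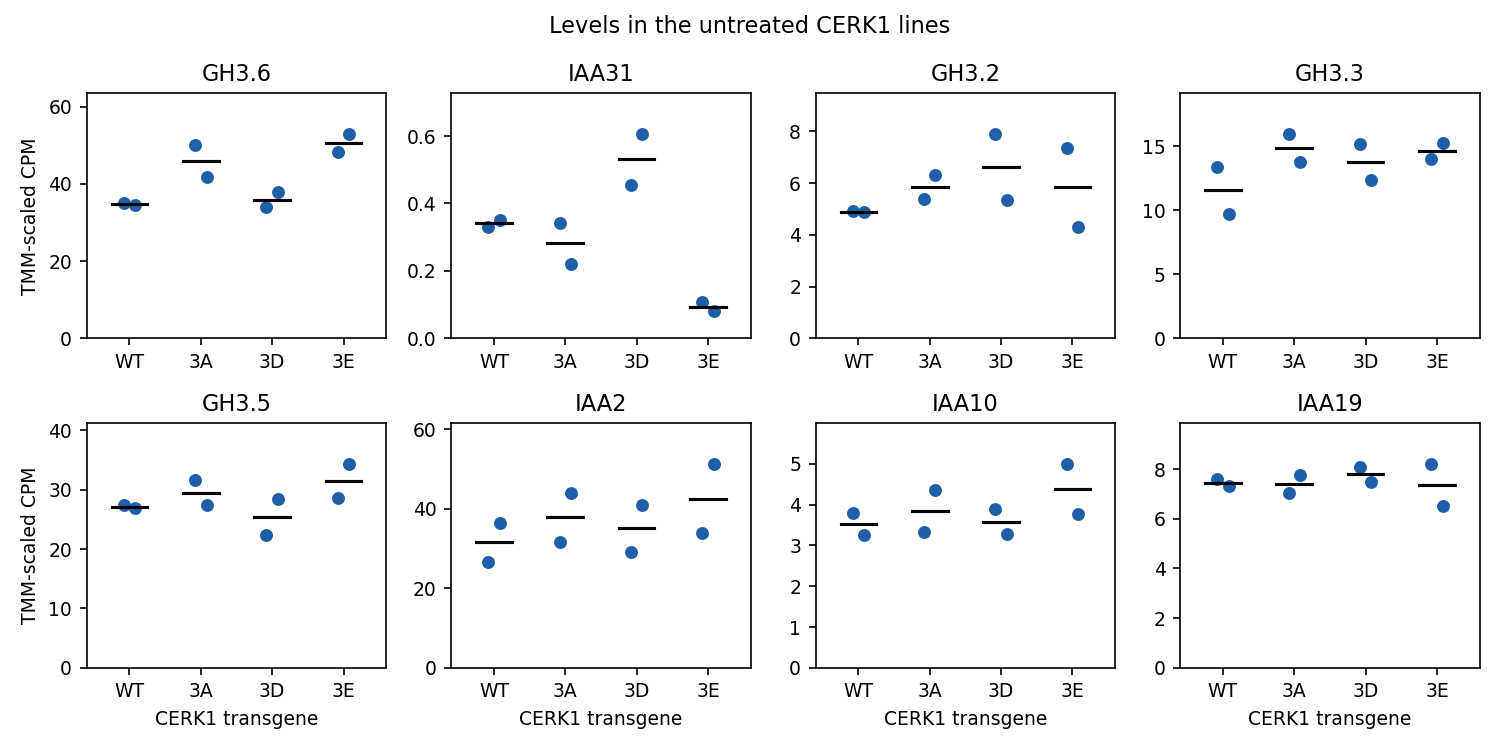
CPM in each of the 8 libraries of the untreated lines, 2 points per CERK1 transgene with a bar at their mean. Shown are GH3.6, IAA31, GH3.5 and the members high after flg22 in both genotypes (IAA2, IAA10, IAA19, GH3.2 and GH3.3). In GH3.6 the libraries of CERK1_3A and CERK1_3E (41.8 to 52.8) lie above those of CERK1_WT and CERK1_3D (33.9 to 38.0), a grouping read from these values. GH3.5 and the members high after flg22 show no such split, with IAA19 between 6.50 and 8.21.

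In all, 7 Aux/IAA genes and GH3.4 were under 1 CPM in all 8 libraries of the lines: IAA6, IAA15, IAA20, IAA31, IAA32, IAA33 and IAA34. IAA15 had 18 counts in all, IAA32 had 16, IAA34 had 38 and GH3.4 had 2, and these 4 were not fitted. In the fitted low genes IAA6, IAA20 and IAA33, the totals over 8 libraries were 162, 107 and 73 counts.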

How the data were processed

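RNA was sequenced from whole seedlings, and groups were taken from the sample titles. The authors deposited raw counts per gene in 2 tables, without normalization. The build was TAIR10, per the submitters' processing notes; the sources used here name no aligner, counting tool or strand setting. The stated gene lengths were equal in 52.1% of the genes in both tables, so levels were not compared between tables. In the flg22 experiment counts were scaled with TMM factors in edgeR 4.0.16 under R 4.3.3, and 18872 genes with at least 1 CPM in at least 1 library formed the background. For the lines a quasi-likelihood model of edgeR was fitted on all 8 libraries, two-sided, with group as the only term and filterByExpr, which kept 21274 genes with 4 residual degrees of freedom. DESeq2 1.42.0 was an alternative. The fits were tested on simulated data. Other alternatives were the scaling, the added CPM, the filters, the replicate block and leaving out each library. Named were all GH3 genes, Aux/IAA genes at least 2-fold different in the flg22 experiment, members with an unadjusted p under 0.05 for any difference among lines, and up to 3 genes of each other list with the largest change. Further genes of some lists were named beside these. The members, lists and tests were chosen with earlier results of these data known. Shared 50-base words were found by comparing annotated TAIR10.1 transcripts on both strands. Intervals and floors of 3 counts hold for counting error alone, because reads that carry no molecular identifier can be copies of 1 molecule.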

Additional observations from a re-analysis of the deposited data

Results flagged for a closer look

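In 2 members the ratio of flg22 to mock lay on opposite sides of 1 in the 2 genotypes, with both counting intervals off 1. IAA8 had a count ratio of 1.101 in wild type and 0.8151 in cerk1. GH3.6 had a ratio of 0.7977 in wild type and 1.156 in cerk1, where the interval began at 1.004 and so only just excluded 1. The difference between genotypes was not tested, since each ratio rests on 1 library per group. IAA8 stood highest in cerk1_mock, and GH3.6 lowest there, in the library whose root markers were lowest; their part was not tested. With scaling by library total, the log2 ratio of IAA8 in wild type was -0.14 in place of 0.14. GH3.6 had 377 of 18159354 counts in cerk1_mock and 435 of 20491446 in cerk1_flg22, a ratio closer to 1 by library total than by TMM. The flag was not computed under that scaling.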

How the results depend on the processing

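In the flg22 experiment, the counts of members at 2-fold held under scaling by library total, DESeq2 size factors and no filter on low values, and changed with the added CPM. With 5 CPM added, 0 Aux/IAA genes were lower with flg22 in wild type in place of 1, and 0 were lower in cerk1_flg22 than in WT_flg22 in place of 2. With 0.1 CPM added, 6 Aux/IAA genes were higher with flg22 in cerk1 in place of 3, and 1 GH3 gene was lower in cerk1_mock than in WT_mock in place of 0. Scaling by library total moved the median log2 ratio of all genes to -0.28 in wild type and -0.17 in cerk1. In the lines, 0 members were called under any edgeR setting, including the replicate block (0 members called, smallest adjusted p of a member 0.605) and each library left out in turn. DESeq2 called 1 GH3 gene for any difference, GH3.6 with an adjusted p of 0.0266, against 0.543 to 1 under the other settings, and gave it 0.0791 in CERK1_3E against CERK1_WT. DESeq2 called 116 genes in that test and edgeR 5, and 15 to 75 against 1 to 6 in the pairwise comparisons; the cause was not tested. Without CERK1_3D replicate 2 the GH3.6 log2 fold change of CERK1_3D against CERK1_WT was -0.04 in place of 0.04, called in neither. Whether libraries with the same replicate number were paired is not stated. Correlations between lines of replicate differences lay between -0.00136 and 0.228, which cannot decide it, and IAA2 was higher in the second library of every line.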
